A study of Mus musculus with 8 samples.

Results

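The 48 genes described here encode proteins that fold secretory proteins in the endoplasmic reticulum (ER) or move them out of it: the sensors of unfolded protein, chaperones, disulfide isomerases, ER-associated degradation, the translocon, the COPII coat with its collagen export factor, and the receptors that carry cargo or return escaped chaperones. They were picked by symbol from knowledge of the pathway, with earlier results of these data known. All 48 were found among the 24982 gene rows of the count table. RNA sequencing was done on fibroblasts grown from mouse tail tendon, of the C57Bl/6 strain. The cells either kept scleraxis (Scx), a transcription factor of tendon cells (4 Scx-positive libraries, replicates 2, 3, 5 and 6), or had lost it (4 Scx-deleted libraries, replicates 2, 3, 4 and 5). Cells of both genotypes had been given 4-hydroxytamoxifen (4HT), so that agent does not separate them. The labels name no recombinase driver and no animal age, and they do not say whether a library came from its own animal or culture. In bulk libraries, fewer cells with a transcript and less RNA per cell cannot be told apart.

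Secreted proteins enter the ER through the Sec61 channel, fold there with the help of chaperones such as BiP (Hspa5) and of disulfide isomerases, and leave in vesicles coated with COPII. When unfolded protein builds up, the membrane sensors Ire1 (Ern1), Perk (Eif2ak3) and Atf6 raise chaperone and degradation genes, Ire1 by splicing the mRNA of Xbp1 and Atf6 by being cut in the Golgi. Tendon fibroblasts make large amounts of fibrillar collagen, whose stiff procollagen molecule depends on the chaperone Hsp47 (Serpinh1) and on enlarged COPII carriers. Counts per gene measure transcript levels and show neither Xbp1 splicing nor the cutting of Atf6.

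Libraries held 17343228 to 25180790 gene counts. Scx itself stood at 7.92 ± 1.52 CPM (counts scaled to an equal library total with TMM factors, SD, n = 4) in Scx-positive and 0.112 ± 0.0461 CPM (SD, n = 4) in Scx-deleted libraries, as the genotype labels say. The first principal component, with 53.3% of the variance, separated the genotypes, and the second, with 12.9%, set Scx-positive 5 apart from the other 7 libraries. Fibroblast markers summed to 8069 to 10200 CPM over 10 genes in Scx-positive and 6103 to 6779 CPM in Scx-deleted libraries, and 7 of the 9 tested were lower in Scx-deleted cells. Most of this sum was Col1a1, Col1a2 and Thbs4, with means of 3919, 3393 and 970 CPM in Scx-positive libraries. The tendon markers Mkx, Fmod and Tnmd averaged 26.0, 16.1 and 6.93 CPM there, and Lum was under 1 CPM in every library. Plasma and B cells, which also run a large secretory pathway, left almost no trace: 6 of their markers summed to at most 0.241 CPM in any library, and Mzb1 and Ms4a1 were at 0. Macrophage and leukocyte markers summed to 20.1 to 22.8 CPM in Scx-positive and 23.2 to 26.8 CPM in Scx-deleted libraries over 8 genes, with 2 called higher, Csf1r and Cd68, and Fcgr1 at 0. Endothelial markers summed to 68.2 to 86.1 CPM over 6 genes in Scx-positive and 48.7 to 53.8 CPM in Scx-deleted libraries, most of it Tek, which was lower (-0.67 ± 0.07 in log2, SE), while Kdr was higher (0.48 ± 0.15) and Pecam1 was under 1 CPM in every library. Muscle markers summed to 34.7 to 40.75 CPM in Scx-positive and 26.8 to 36.2 CPM in Scx-deleted libraries over 6 genes, with Acta1 lower and Myod1 and Myf5 at 0. For 5 Schwann and glial markers these sums were 27.1 to 29.6 CPM and 22.6 to 27.7 CPM, with S100b lower. Of the keratinocyte and adipocyte markers none was called, with sums of 85.7 to 88.4 and 85.05 to 88.65 CPM (6 genes, Krt1 at 0) and of 6.67 to 12.15 and 6.02 to 9.46 CPM (4 genes, Lep at 0). Most of the keratinocyte sum was Dsp (means of 84.0 CPM with Scx and 82.85 CPM without it), while Krt5, Krt14 and Trp63 were under 1 CPM in every library. The part of these other cell types in the results was not tested.

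All 48 genes passed the filter on low counts. With edgeR's quasi-likelihood test and Benjamini-Hochberg adjustment at 0.05, 2 of them were higher in Scx-deleted cells (Ern1 and Atf6) and 9 were lower (Xbp1, Creb3l1, Pdia5, Herpud1, Ssr3, Sar1a, Sec24d, Kdelr2 and Lman1). That is 22.9% of the 48, against 28.5% of all 13125 tested genes. Rises made up 4.17% of the 48 and 14.0% of all tested genes, and falls 18.8% of the 48 and 14.5% of all tested genes. The changes were small: the median log2 change was -0.06 over the 48 and -0.005 over all tested genes, 33 of the 48 lay below 0, and Atf6 alone passed 1.5-fold. The called falls were changes of -7.004% (Sar1a) to -28.4% (Creb3l1). Of the 37 genes that were not called, 36 had a 95% interval within 1.2-fold of no change, Derl3 being the exception.

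Replicates lay close together for these genes. The median coefficient of variation over the 48 was 3.71% in Scx-positive and 2.95% in Scx-deleted libraries, against 7.34% and 5.17% over all tested genes. The 4 values of a genotype lay wholly above or below those of the other in 20 of the 48 (41.7%), against 29.1% of all tested genes. These 20 were the 11 called genes and 9 others (Canx, Pdia3, Pdia4, Pdia6, Sec61a1, Sar1b, Sec31a, Sec23b and Surf4). Of the 48, 32 averaged at least 100 CPM in Scx-positive libraries, and the spread and separation over all tested genes are not matched for level. Whether the 48 differ from genes of like level was not tested. Scx-positive 5 was the highest or lowest of its group in 44 of the 48 (91.7%), against 71.2% of all tested genes. The 22 genes it was highest in had a median transcript GC content of 53.0%, and the 22 it was lowest in 44.4%. Without this library 2 of the 48 were higher and 11 lower, and 35.8% of all genes tested then were called. When the fit carried offsets for GC content and transcript length, 6 of the 48 were higher and 15 lower. Rises were then 28.6% of the calls, against 18.2% without the offsets. All tested genes shifted the same way: more of them were called, and rises were 56.6% of their calls, against 49.2% without the offsets.

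**Figure D1:**
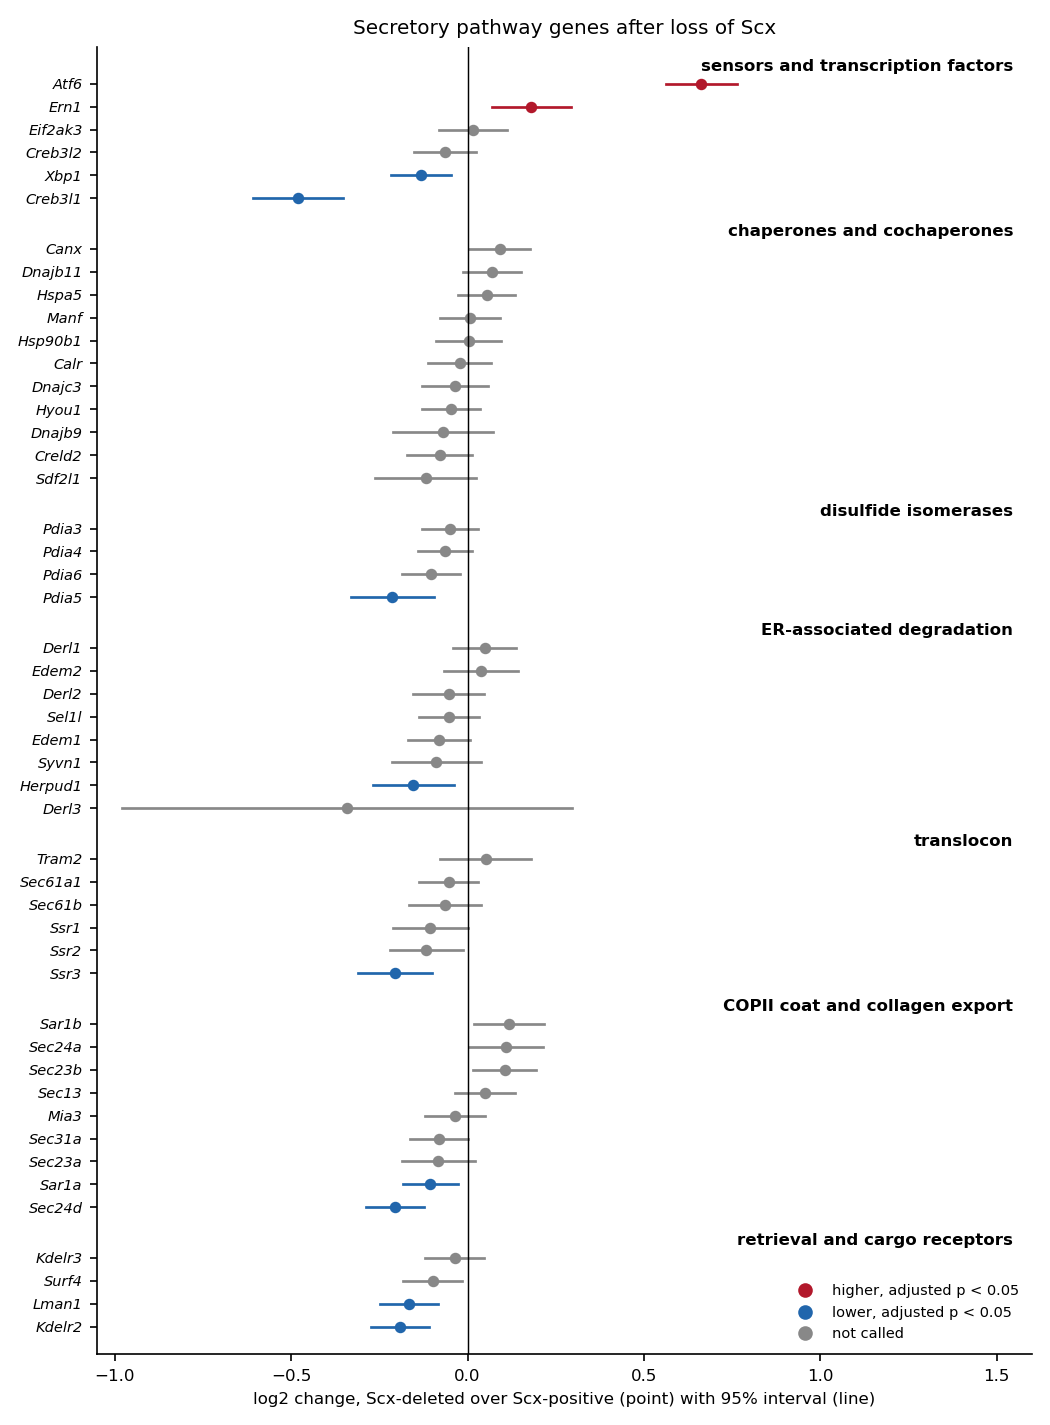
Log2 change of Scx-deleted over Scx-positive cells on the x axis for each of the 48 genes on the y axis, ordered by role (point, edgeR estimate from 4 libraries each; line, 95% interval; red and blue, adjusted p under 0.05). Atf6, at 0.66, lies far to the right of the rest, Creb3l1 at -0.48 to the left, and all 11 chaperones and cochaperones are grey around 0.

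Among the sensors and transcription factors of the stress response, 4 of 6 changed (66.7%, against 28.5% of all tested genes), 2 in each direction. Atf6 (ENSMUSG00000026663.6, chr1:170704674-170867771 on the minus strand, GRCm38), the sensor that becomes a transcription factor once cut in the Golgi, was measured at 146, 141, 131 and 141 CPM in Scx-positive libraries 2, 3, 5 and 6 and at 206.5, 232, 219 and 228 CPM in Scx-deleted libraries 2, 3, 4 and 5. Every Scx-deleted library was above every Scx-positive one by a wide margin. The log2 change was 0.66 ± 0.05 (SE), a 1.58-fold rise (edgeR, adjusted p = 1.08e-07). It kept its call under every alternative run, between 0.64 and 0.70. Ern1 (ENSMUSG00000020715.9), the Ire1 kinase and endonuclease that splices Xbp1 mRNA, stood at 24.4, 24.3, 24.8 and 24.6 CPM with Scx and at 28.4, 26.98, 27.3 and 28.5 CPM without it. The Scx-positive values lay within a narrow band and the Scx-deleted ones all above it, a rise of 0.18 ± 0.05 in log2 (SE, adjusted p = 0.0179, edgeR) that was lost without Scx-deleted 5. Eif2ak3, the Perk kinase that slows translation through eIF2α, showed 80.5, 81.6, 81.95 and 73.4 CPM against 78.9, 82.4, 78.9 and 80.75 CPM. Its groups overlapped, with a log2 change of 0.02 ± 0.05 (SE) and a 95% interval from -0.08 to 0.11.

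Of the other 3 transcription factors, Creb3l1 and Xbp1 were lower and Creb3l2 was not called. Creb3l1 (ENSMUSG00000027230.9, chr2:91982328-92024502, minus strand) encodes OASIS, an ER membrane protein of the Atf6 type that is cut to release a transcription factor and is known for driving type I collagen in bone-forming cells. Its values were 64.3, 63.9, 75.75 and 64.0 CPM in Scx-positive and 50.7, 47.0, 45.7 and 48.6 CPM in Scx-deleted libraries. Scx-positive 5 stood well above the other 3 of its group, and all Scx-deleted libraries were below all Scx-positive ones. The fall of 28.4% was a log2 change of -0.48 ± 0.06 (SE, adjusted p = 2.31e-05, edgeR), and -0.41 without Scx-positive 5. Xbp1 (ENSMUSG00000020484.18), the factor made from the mRNA that Ire1 splices, was counted at 154, 146.5, 156 and 152 CPM and at 145, 137, 136 and 138 CPM in the same order. The groups came close without overlapping, for a log2 change of -0.13 ± 0.04 (SE, adjusted p = 0.0205, edgeR). Its call was lost without Scx-positive 2 or without Scx-deleted 3, 4 or 5. Creb3l2, the close relative of Creb3l1 known for raising Sec23a in cartilage cells, averaged 81.6 ± 1.47 CPM with Scx and 78.0 ± 2.39 CPM without it (SD, n = 4 each), and its groups overlapped (adjusted p = 0.267, edgeR).

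**Figure D2:**
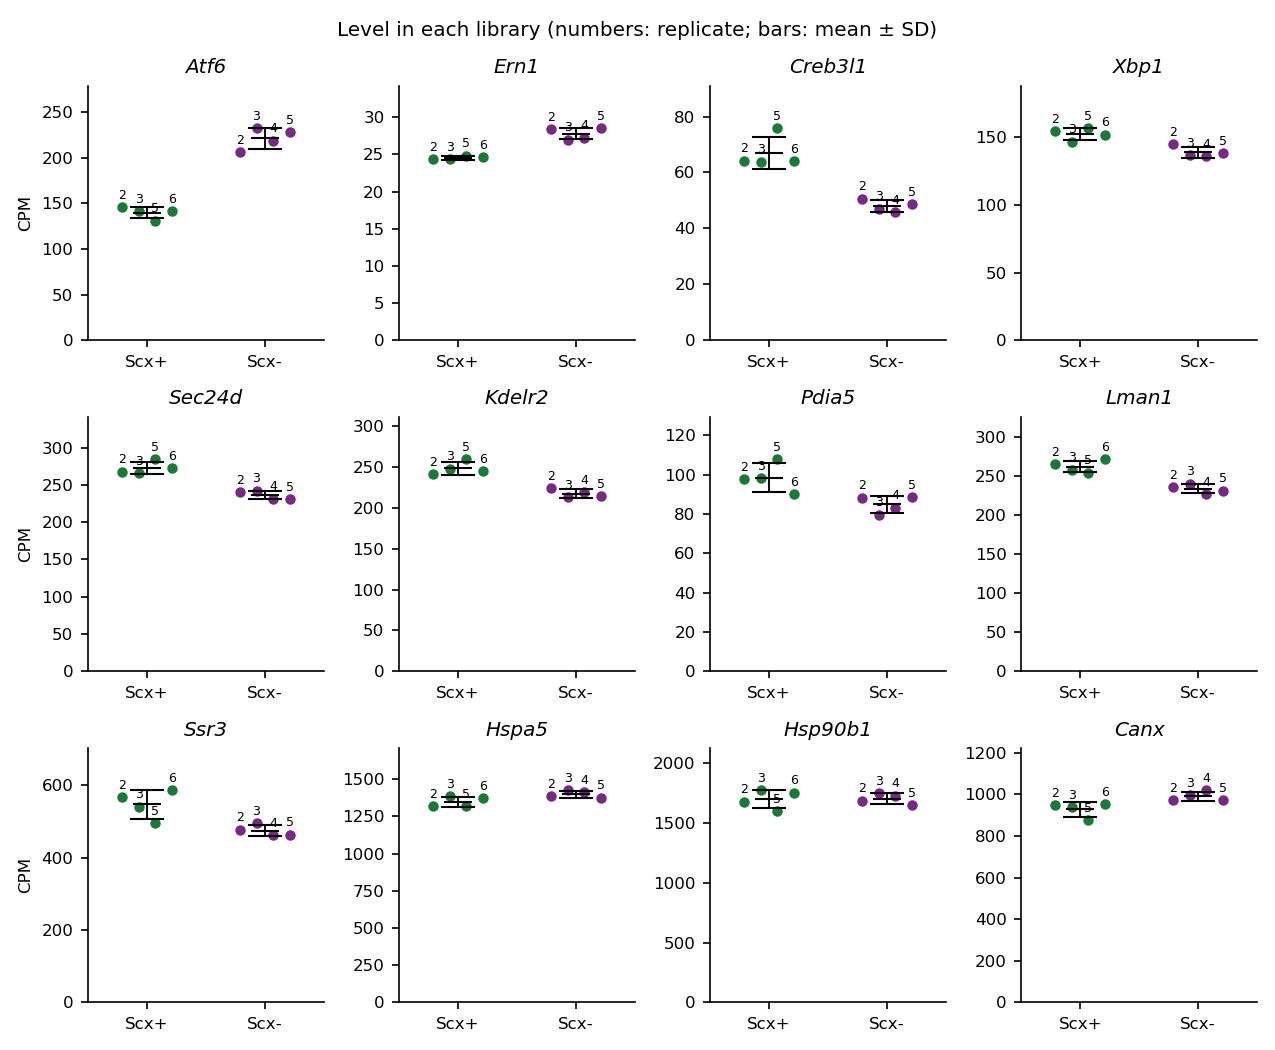
CPM (y axis, from 0, a scale of its own in each panel) in each Scx-positive (Scx+, green) and Scx-deleted (Scx-, purple) library for 12 of the genes, with replicate numbers beside the points and the mean ± SD (n = 4) as bars. The Atf6 groups are far apart, Creb3l1 and Sec24d are lower in every Scx-deleted library, and the Hspa5 and Hsp90b1 groups overlap.

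None of the 11 chaperones and cochaperones passed the test in the main edgeR fit, with DESeq2 or with limma-voom, against 28.5% of all tested genes in edgeR. In that edgeR fit 1 of the 11 (Canx) had an unadjusted p under 0.05. The authors' deposited table did call Canx higher (0.15 in log2, adjusted p = 0.000127) and Creld2 lower (-0.12, adjusted p = 0.0208). Hspa5 (ENSMUSG00000026864.13, chr2:34771970-34777547, plus strand) encodes BiP, the Hsp70 chaperone of the ER whose level is the usual gauge of the unfolded protein response. It stood at 1320, 1384, 1318 and 1372 CPM in Scx-positive and at 1384, 1424, 1414 and 1375 CPM in Scx-deleted libraries. These ranges overlap, and the log2 change was 0.05 ± 0.04 (SE) with a 95% interval from -0.03 to 0.135. Hsp90b1, the Hsp90 of the ER, gave 1681, 1774, 1602 and 1754 CPM and 1688, 1753, 1730 and 1652 CPM, with the groups interleaved and a log2 change of 0.003 (95% interval -0.09 to 0.095).

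Calnexin (Canx), the membrane lectin that holds glycoproteins while they fold, had 947, 939, 876 and 954 CPM with Scx and 971, 997, 1019 and 973 CPM without it. All Scx-deleted values were the higher ones, Scx-positive 5 being the lowest of the 8, but the log2 change of 0.09 ± 0.04 (SE) had an adjusted p of 0.106 in edgeR. Its soluble relative calreticulin (Calr) averaged 1473 ± 40.7 CPM and 1450 ± 54.9 CPM (SD, n = 4 each), with overlapping groups. The BiP cochaperone Dnajb11 showed 198, 195, 191 and 202 CPM against 197, 209.8, 208 and 209 CPM, and Scx-deleted 2 lay among the Scx-positive values. Creld2, a disulfide isomerase-like protein induced by ER stress, showed 81.1, 82.8, 87.7 and 81.7 CPM against 81.9, 78.1, 79.6 and 76.0 CPM, and Sdf2l1, which works with BiP and Dnajb11, 33.8, 31.1, 38.9 and 35.7 CPM against 33.2, 30.4, 31.3 and 33.85 CPM. Both overlapped between genotypes, with adjusted p of 0.195 and 0.21 in edgeR. The remaining 4 (Hyou1, Dnajb9, Dnajc3 and Manf) had log2 changes between -0.07 and 0.007. Across all 11, the 95% intervals reached from 16.5% lower to 13.1% higher. With the GC and length offsets, under which more of all tested genes were called, Canx was higher (0.13), and Sdf2l1 (-0.14) and Creld2 (-0.10) lower.

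The unfolded protein response acts on many of these genes through the ER stress element (ERSE), a CCAAT box and a CCACG stretch set apart by 9 bases of any kind, at which Atf6 and Xbp1 bind with NF-Y. RefSeq promoters (GRCm38.p6, 250 bases before to 50 after the start) were given for 39 of the 48 genes. A perfect ERSE on either strand was found in 9 of the 39 (23.1%), against 37 of 27025 genes with a promoter (0.137%). Since the 48 were picked as known genes of this pathway, the shares of these motifs are a description and not a test. The 10 matches, written along the motif with the CCAAT and CCACG parts in capitals, show which chaperone and degradation genes carry it:
Hspa5, chr2:34772025-34772043: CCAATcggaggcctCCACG
Hsp90b1, chr10:86705533-86705551: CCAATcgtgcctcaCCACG
Hsp90b1, chr10:86705638-86705656: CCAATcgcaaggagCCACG
Calr, chr8:84847075-84847093: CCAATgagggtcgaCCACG
Canx, chr11:50325800-50325818: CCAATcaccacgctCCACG
Creld2, chr15:88819520-88819538: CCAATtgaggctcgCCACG
Dnajc3, chr14:118937827-118937845: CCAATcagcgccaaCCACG
Pdia6, chr12:17266491-17266509: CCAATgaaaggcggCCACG
Derl3, chr10:75893242-75893260: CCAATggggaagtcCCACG
Syvn1, chr19:6046532-6046550: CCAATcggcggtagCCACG

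None of the 9 genes with a perfect ERSE was called in the main edgeR fit, against 28.5% of all tested genes. Their log2 changes ran from -0.34 (Derl3) to 0.09 (Canx) with a median of -0.04. Other settings called some: Canx (higher), Creld2 and Pdia6 (lower) in edgeR with the GC and length offsets and in the authors' deposited table. Pdia6 was also called in edgeR with upper-quartile factors or a filter of 5 CPM in 4 libraries, and with DESeq2 and limma-voom. Of the 30 genes whose window lacks one, 1 was higher and 6 were lower, with a median of -0.06. The other letters searched were ERSE-II (ATTGG, 1 base of any kind, CCACG), found in Dnajb11 and Herpud1 (5.13% of the 39 against 0.0444% of all genes), and the UPRE core TGACGTGG, found in Kdelr3, Sec23a and Sec24d (7.69% against 0.714%). In the main edgeR fit Herpud1 and Sec24d were lower, and the other genes with either motif were not called. The CCACG stretch alone, which every ERSE and ERSE-II contains, was in 76.9% of the 39 and 35.5% of all genes, and a CCAAT box alone in 64.1% and 41.1%. Of the 30 genes with the CCACG stretch, 1 was higher and 5 were lower, and 1 of those without it was lower. Of the 25 genes with the CCAAT box, 3 were lower, and of those without it 1 was higher and 3 were lower. These counts can be set beside the 28.5% of all tested genes. Allowing 1 mismatch, ERSE was in 15 of the 39 (38.5%) and in 1.72% of all genes, and 1 of the 15 (Herpud1) was lower. Atf6, Creb3l1, Kdelr2 and Lman1 are among the 9 genes not in the promoter table. A match describes letters in the window only.

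The 250 bases before the start of 3 genes show how these elements are placed. Hspa5 has 1 perfect ERSE close to the start, Hsp90b1 has 2 in opposite orientations, and Sec24d, called lower, has the UPRE core. That core is also in the windows of Kdelr3 and Sec23a, which were not called. The matches are in capitals, and each sequence runs 5′ to 3′ along the gene's own strand:
Hspa5, chr2:34771840-34772089, plus strand: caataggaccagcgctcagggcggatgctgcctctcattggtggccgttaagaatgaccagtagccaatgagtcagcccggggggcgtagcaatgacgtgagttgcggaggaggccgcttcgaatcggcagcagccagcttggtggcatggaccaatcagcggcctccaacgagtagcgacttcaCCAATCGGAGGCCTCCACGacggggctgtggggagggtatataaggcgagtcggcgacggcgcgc
Hsp90b1, chr10:86705445-86705694, minus strand: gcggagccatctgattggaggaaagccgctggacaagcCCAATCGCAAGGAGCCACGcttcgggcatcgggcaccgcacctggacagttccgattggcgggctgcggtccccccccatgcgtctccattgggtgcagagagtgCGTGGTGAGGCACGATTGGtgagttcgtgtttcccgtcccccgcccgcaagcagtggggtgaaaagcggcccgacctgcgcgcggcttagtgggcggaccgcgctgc
Sec24d, chr3:123267246-123267495, plus strand: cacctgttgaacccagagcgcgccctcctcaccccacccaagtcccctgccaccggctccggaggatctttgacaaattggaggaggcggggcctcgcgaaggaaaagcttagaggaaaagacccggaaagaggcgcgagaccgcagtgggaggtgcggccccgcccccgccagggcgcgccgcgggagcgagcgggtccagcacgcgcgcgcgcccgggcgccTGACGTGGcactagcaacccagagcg

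**Figure D3:**
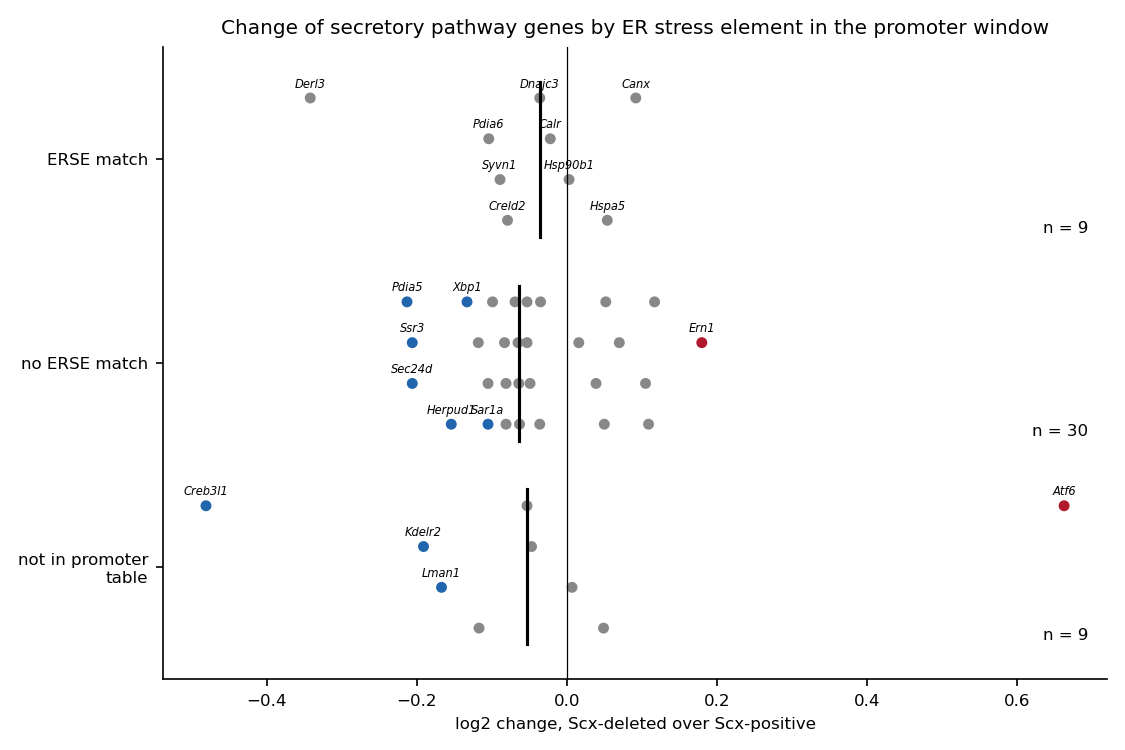
Log2 change of Scx-deleted over Scx-positive cells (x axis) for the 9 genes with a perfect ERSE, the 30 without one and the 9 not in the promoter table (rows). Points are genes, colored red (higher), blue (lower) or grey (not called), and black bars are medians, so that every point of the top row is grey in this edgeR fit.

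All 4 disulfide isomerases were measured lower in every Scx-deleted library than in any Scx-positive one, as were 1873 of all 13125 tested genes. Only Pdia5 passed the test in the main edgeR fit (1 of 4, against 28.5% of all tested genes). Pdia5 (ENSMUSG00000022844.8), a less studied member of the family, was counted at 97.55, 98.25, 108 and 89.9 CPM with Scx and at 88.2, 79.7, 83.1 and 88.4 CPM without it. The margin between the groups was narrow, since Scx-positive 6 lay just above Scx-deleted 5. The log2 change was -0.21 ± 0.055 (SE, adjusted p = 0.00895, edgeR). Pdia6, which also acts on the stress sensors, gave 633, 658, 685 and 644 CPM against 618, 614, 607 and 600.2 CPM, for a log2 change of -0.10 ± 0.04 (SE) just short of the threshold (adjusted p = 0.0547, edgeR). DESeq2 and limma-voom called it lower, as did edgeR with upper-quartile factors, with a filter of 5 CPM in 4 libraries or with the offsets. Pdia3, the isomerase that works on glycoproteins held by calnexin and calreticulin, showed 1224, 1283, 1220 and 1261 CPM and 1217, 1204, 1205 and 1195 CPM, and Pdia4 465, 466, 463 and 481 CPM and 454, 452, 451 and 436 CPM. Their log2 changes of -0.05 and -0.06 had adjusted p of 0.352 and 0.212 in edgeR.

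ER-associated degradation returns misfolded proteins to the cytosol for the proteasome, and 1 of its 8 genes here changed (12.5%, against 28.5% of all tested genes). Herpud1, a membrane scaffold of the Hrd1 ligase complex, had 118, 113, 132 and 110.1 CPM in Scx-positive and 109.9, 104, 103 and 109 CPM in Scx-deleted libraries. Scx-positive 6 and Scx-deleted 2 nearly touched. The log2 change of -0.15 ± 0.05 (SE, adjusted p = 0.0442, edgeR) lost its call without Scx-positive 2 or 5 and without any 1 of the 4 Scx-deleted libraries. The Hrd1 ligase itself (Syvn1) stood at 102, 99.3, 117 and 103 CPM against 107, 91.2, 95.4 and 103 CPM, and its partner Sel1l at 377, 374, 365 and 382.5 CPM against 366, 371, 339 and 368 CPM. In both the groups overlapped. Edem1, a lectin that sends trimmed glycoproteins to degradation, showed 135, 135, 126 and 132 CPM against 125, 130.0, 120.5 and 124 CPM, with Scx-positive 5 the only Scx-positive value below that of Scx-deleted 3, and was called lower only when Scx-positive 5 was left out of the fit. Edem2, Derl1 and Derl2 had log2 changes from -0.05 to 0.05 and none was called. Derl3 was the scarcest of the 48, with 7 to 24 counts per library, and its interval from -0.98 to 0.295 leaves its change unresolved at this depth.

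At the translocon, through which new chains enter the ER, 1 of 6 genes fell, a share of 16.7% that is near the 14.5% of all tested genes called lower. Ssr3 (ENSMUSG00000027828.12), the gamma subunit of the translocon-associated TRAP complex, was counted at 567, 540.5, 496 and 586 CPM in Scx-positive and 477, 495, 463 and 464 CPM in Scx-deleted libraries. The lowest Scx-positive value, from replicate 5, was barely above the highest Scx-deleted one. The log2 change was -0.21 ± 0.05 (SE, adjusted p = 0.00556, edgeR). The alpha subunit Ssr1 gave 327, 328, 290.3 and 348 CPM against 290.4, 309, 304 and 299 CPM and the beta subunit Ssr2 123, 130.1, 139 and 126 CPM against 123, 112, 124 and 119 CPM. Both overlapped and were not called (-0.105 ± 0.05 and -0.12 ± 0.05 in log2, SE), although Ssr1 was called lower without Scx-positive 5. The channel subunit Sec61a1 had 343, 343, 373 and 348 CPM and 343, 333, 339 and 342 CPM, a separation of under 1 CPM between the nearest libraries, with an adjusted p of 0.34 in edgeR. Sec61b and Tram2, a translocon partner linked to collagen synthesis, had log2 changes of -0.06 and 0.05.

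Within the COPII coat and its collagen adaptor, 2 of 9 genes fell and none rose (22.2% called, against 28.5% of all tested genes). With the GC and length offsets, under which more of all tested genes were called, Sar1b (0.10), Sec23b (0.15) and Sec24a (0.15) were called higher. Sec24d (ENSMUSG00000039234.11, chr3:123267455-123365641, plus strand) encodes a cargo-binding subunit of the inner coat, whose loss is known to hinder collagen export in bone and cartilage. It was measured at 268, 265, 284 and 272 CPM with Scx and at 240.0, 242, 231.5 and 231 CPM without it. The Scx-deleted values formed a tight group well under the Scx-positive ones. The log2 change was -0.21 ± 0.04 (SE, adjusted p = 0.000889, edgeR), between -0.23 and -0.18 under every alternative run, all of which called it. Sec24a, another cargo-binding subunit, lay the other way without passing the test: it averaged 83.1 ± 4.27 CPM and 89.5 ± 4.05 CPM (SD, n = 4 each), which is 0.11 ± 0.05 in log2 (SE, adjusted p = 0.11, edgeR).

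The small GTPase Sar1 starts the coat. Sar1a stood at 313, 329.5, 306.5 and 312 CPM against 293, 295, 293 and 292 CPM, the Scx-deleted values lying in a narrow band under all Scx-positive ones. Its log2 change of -0.105 ± 0.04 (SE, adjusted p = 0.0458, edgeR) kept its call when Scx-positive 5 was left out and lost it without any other single library. Sar1b, known for the export of lipoprotein particles in gut and liver, had 63.7, 62.3, 56.5 and 60.45 CPM against 64.9, 64.95, 67.7 and 65.8 CPM. The Scx-deleted values were the higher ones here, with a log2 change of 0.12 ± 0.05 (SE) and an adjusted p of 0.0757 in edgeR. Of the Sec23 subunits, which activate Sar1, Sec23a showed 247, 249, 221 and 252 CPM against 220.3, 239.8, 236 and 219 CPM and Sec23b 83.4, 80.3, 77.1 and 84.5 CPM against 87.6, 87.4, 87.2 and 87.7 CPM. Sec23a overlapped at Scx-positive 5 alone and was called lower without that library, whereas every Scx-deleted library was higher in Sec23b (adjusted p = 0.225 and 0.0737, edgeR). Mia3, which encodes Tango1, the ER exit site protein that loads procollagen, had 228, 225, 212 and 225 CPM and 213, 227, 215 and 213.5 CPM, overlapping, with a log2 change of -0.035 ± 0.04 (SE). The outer coat genes Sec13 and Sec31a had log2 changes of 0.05 and -0.08 and were not called.

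Of the 4 genes for retrieval and cargo receptors, 2 fell, against 14.5% of all tested genes called lower. Kdelr2 (ENSMUSG00000079111.3, chr5:143403838-143421901, plus strand) encodes a receptor that catches escaped ER chaperones by their KDEL tail in the Golgi and sends them back. Its values were 241, 248, 259 and 244.5 CPM in Scx-positive and 224, 213, 219 and 214 CPM in Scx-deleted libraries. All Scx-deleted values were under all Scx-positive ones. The log2 change was -0.19 ± 0.04 (SE, adjusted p = 0.00162, edgeR), and it was called under every alternative run. Kdelr3, a second form of the receptor, had 112, 111.5, 113 and 112 CPM against 109, 105, 109.6 and 113 CPM, overlapping, for a log2 change of -0.04 ± 0.04 (SE, adjusted p = 0.528, edgeR). Lman1 (ENSMUSG00000041891.16), the lectin ERGIC-53 that carries glycoproteins to the Golgi, was measured at 265, 258, 255 and 272 CPM against 236, 240.4, 227 and 232 CPM, without overlap, with a log2 change of -0.17 ± 0.04 (SE, adjusted p = 0.00412, edgeR). Surf4, a cargo receptor for soluble proteins, gave 475, 473, 508 and 501 CPM against 469, 458, 452 and 448 CPM. All Scx-deleted values were the lower ones, and the adjusted p was 0.0702.

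Related genes were then compared within each library, where their ratio does not depend on how libraries are scaled. For 12 pairs the mean log2 ratio was compared between genotypes with an exact two-sided permutation test over the 70 ways to label the libraries, whose smallest p is 0.0286, and adjusted over the 12 pairs. In 5 pairs the groups did not overlap and the test gave that smallest p (0.0686 adjusted, so none passes 0.05). After adjustment that smallest p passes 0.05 only where more pairs share it, so no pair could pass alone, however large its difference. The Sec24a to Sec24d ratio was -1.71 ± 0.11 in Scx-positive and -1.40 ± 0.055 in Scx-deleted libraries (log2, SD, n = 4 each), a difference of 0.31 ± 0.06 (SE). The Sar1a to Sar1b ratio was 2.38 ± 0.06 with Scx and 2.155 ± 0.03 without it, and that of Sec23a to Sec23b 1.57 ± 0.05 and 1.39 ± 0.07. In each COPII pair, the form with more counts in these cells held a smaller share of the pair in Scx-deleted cells. Kdelr2 to Kdelr3 stood at 1.15 ± 0.035 and 0.99 ± 0.05, and Creb3l1 to Creb3l2 at -0.29 ± 0.10 and -0.70 ± 0.09.

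For the other 7 pairs the exact permutation p was 0.0571 or more. Ern1 to Eif2ak3 and Calr to Canx differed by 0.16 ± 0.05 and by -0.115 ± 0.05 (log2, SE, exact permutation p = 0.0571 and adjusted p = 0.0979 for both). Hspa5 to Hsp90b1 differed by 0.05 ± 0.02 and Pdia4 to Pdia6 by 0.04 ± 0.03 (SE), with exact permutation p of 0.114 and 0.343. Limma on the same ratios, which pools the spread over pairs, put 8 of the 12 under an adjusted p of 0.05: the 5 above, Ern1 to Eif2ak3, Calr to Canx and Dnajb9 to Dnajb11. With Scx-positive 5 left out, 7 pairs passed the exact test after adjustment.

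**Figure D4:**
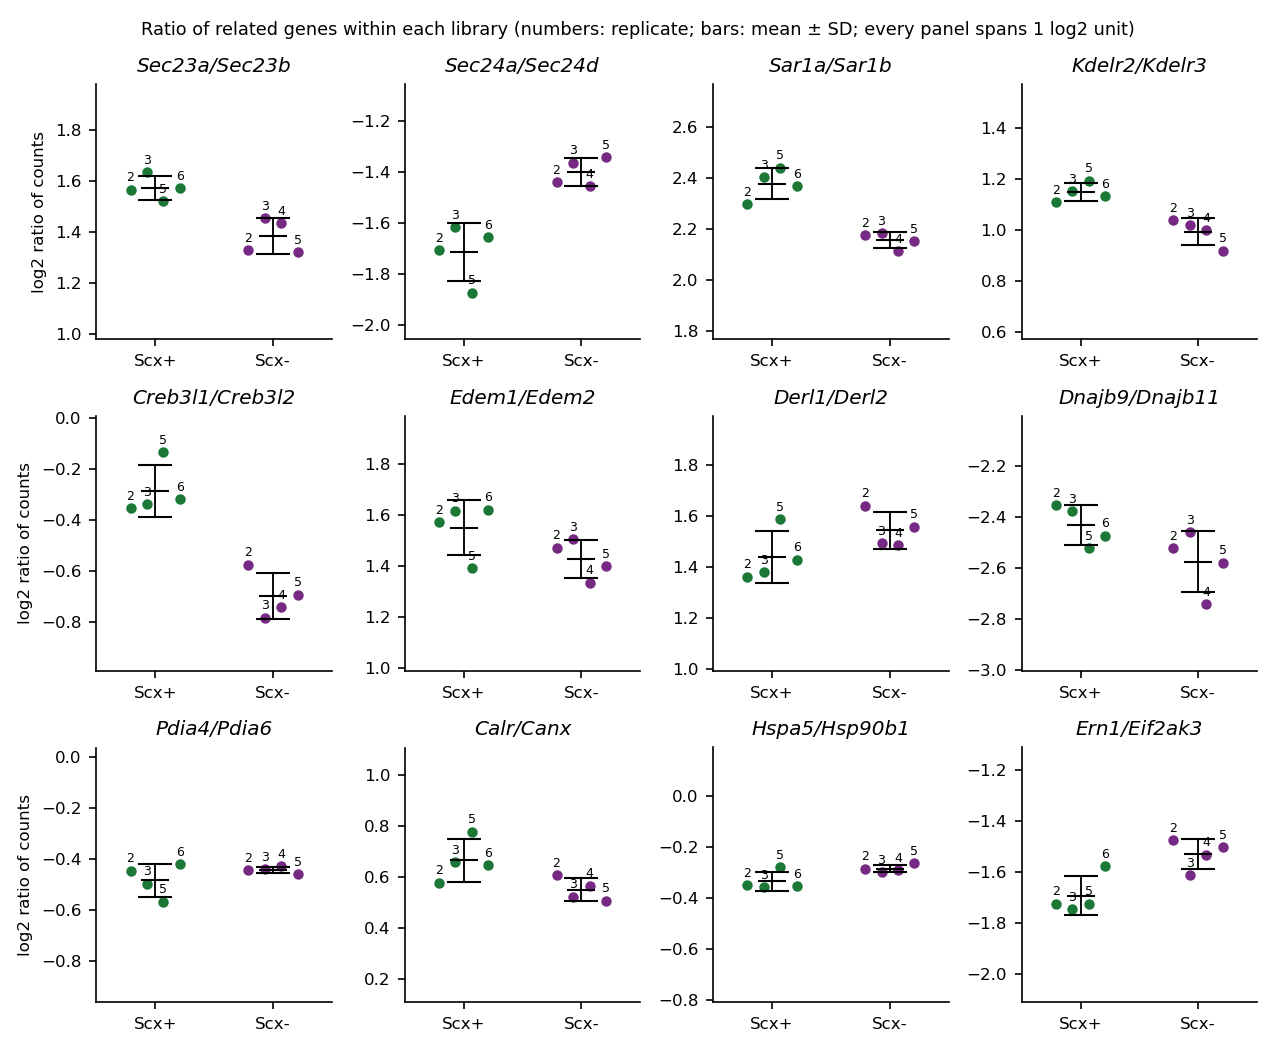
Log2 ratio of counts of 2 related genes within each library (y axis, 1 log2 unit in every panel, not starting at 0) for the 12 pairs, by genotype, with replicate numbers and mean ± SD (n = 4). The points of the Sec23, Sec24, Sar1, Kdelr and Creb3l pairs do not overlap between genotypes, and Scx-positive 5 is the far point of its group in several panels.

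Per length, Calr (511 CPM per kb of merged exons in Scx-positive cells), Hsp90b1 (422), Pdia3 (397) and Hspa5 (319) were the most abundant transcripts of the 48. The sensors were far scarcer, with 3.001 CPM per kb for Ern1, 13.2 for Eif2ak3 and 15.2 for Atf6, the last reaching 24.0 CPM per kb in Scx-deleted cells. Summed over the 48 genes, CPM ranged from 14960 to 15390 in Scx-positive and from 14600 to 14960 in Scx-deleted libraries. How reads were assigned by strand is not given in the sources used here. Eif2ak3, Sec61a1, Sec23a, Hsp90b1 and Ssr2 share 8.05% to 12.8% of their exon bases with a gene on the other strand, for Ssr2 a processed pseudogene, so their counts are less certain. Atf6, Creb3l1, Sec24d, Kdelr2, Lman1, Ssr3 and Pdia5 share none.

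The wider pathway was read through 138 further genes in 9 lists, of which 13 were higher and 27 lower (29.0%, near the 28.5% over all genes). The median log2 change over the 138 was -0.02. Counts per list below can be set beside the 14.0% and 14.5% of all tested genes called higher and lower.

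Of 12 further oxidoreductases of the ER, 5 fell and 1 rose. Ero1l, the oxidase that recharges the isomerases, was at 100.5, 103, 90.1 and 101 CPM in Scx-positive and 127, 141, 132 and 143 CPM in Scx-deleted libraries, all higher, for a log2 change of 0.46 ± 0.05 (SE, adjusted p = 8.17e-06, edgeR). The 5 that fell were the thioredoxin-like membrane proteins Tmx4 (-0.35 ± 0.06) and Txndc11 (-0.25 ± 0.045), the reductase Dnajc10 (-0.18 ± 0.05), Txndc5 (-0.17 ± 0.05) and P4hb (-0.11 ± 0.04), the isomerase that is also a subunit of collagen prolyl hydroxylase (log2, SE). Of 14 further cochaperones and calcium-binding helpers 4 fell, Serp1, a small translocon protein (-0.28 ± 0.05), Cnpy4 (-0.23 ± 0.04), and the reticulocalbins Rcn1 (-0.18 ± 0.04) and Rcn3 (-0.29 ± 0.07). None of the 14 rose, and 1 was called higher without Scx-positive 5. Of 14 genes of N-glycosylation Tusc3 rose (0.13) and Mogs fell (-0.19). These calls rest on the libraries included: without Scx-positive 5 there were 4 in each direction, and Tusc3 lost its call without any 1 of Scx-positive 3 or 6 or Scx-deleted 3, 4 or 5, and Mogs without Scx-deleted 4.

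Of 18 genes of signal recognition and translocation, Tram1 fell (-0.16) and none rose, while 3 were called higher without Scx-positive 3, 1 higher and 2 lower without Scx-positive 5, and none lower without Scx-positive 2. Among 16 further degradation genes, Selenok, a selenoprotein of the ER membrane (0.215 ± 0.04), Ube2g2 (0.16 ± 0.04) and Aup1 (0.165 ± 0.06) rose, and the ligase Rnf139 (-0.25 ± 0.06) and the lectin Erlec1 (-0.15 ± 0.05) fell (log2, SE). The 3 rises became 1 without Scx-positive 2, and the 2 falls became 1 without Scx-positive 2 or 3 or Scx-deleted 2, 4 or 5.

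In vesicle transport, 3 of 26 further COPII and ER-to-Golgi genes fell and none rose. The largest of the 3 falls was that of Sec16b, a scaffold of ER exit sites, at 31.4, 32.3, 32.1 and 29.8 CPM in Scx-positive and 23.7, 21.2, 21.2 and 19.3 CPM in Scx-deleted libraries. The groups were far apart, with a log2 change of -0.56 ± 0.065 (SE, adjusted p = 1.18e-05, edgeR). Yipf5 (-0.19) and Tfg (-0.11), which gathers COPII carriers, followed. Without Scx-positive 5 this list had 5 falls and 3 rises. In the COPI coat, which returns vesicles to the ER, Gbf1 (-0.15), Copz2 (-0.20) and Arf4 (-0.13) of 12 fell and Copz1 rose (0.125), the last not called without any 1 of Scx-positive 2 or 6 or Scx-deleted 3 or 4. Copz1 and Copz2 encode alternative forms of the same subunit.

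Of 16 genes that stress pathways switch on or that process the sensors, 7 rose and none fell. Ddit3, the factor CHOP made under Perk and Atf4 signaling, stood at 86.7, 86.3, 93.7 and 78.1 CPM in Scx-positive and 134, 132, 146 and 151 CPM in Scx-deleted libraries, a log2 change of 0.71 ± 0.06 (SE, adjusted p = 4.37e-07, edgeR). No Scx-deleted library came near the Scx-positive range. Chac1, a glutathione-degrading target of Atf4 and CHOP, was at 38.5, 37.8, 42.7 and 35.2 CPM against 58.4, 50.4, 54.2 and 62.7 CPM, again without overlap (0.55 ± 0.07 in log2, SE). Atf4 (0.19 ± 0.04) and Nupr1 (0.29 ± 0.07) rose less, and Trib3, Ppp1r15a and Ddit4 were the others (log2, SE). These genes also answer to amino acid shortage and other stresses. Hspa5, Hsp90b1, Dnajb9 and Sdf2l1, textbook targets of Atf6 or Ire1 signaling, were not called in the same libraries, and Herpud1, another such target, was lower.

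The cargo list had the lowest median of the 9 (-0.31). Of its 10 matrix and matrix-chaperone genes, 8 fell and none rose, and their summed level was 25100 to 30150 CPM in Scx-positive and 21480 to 23390 CPM in Scx-deleted libraries. Col3a1 was at 1495, 1524, 1914 and 1534 CPM against 793, 727, 725.5 and 698 CPM, with a log2 change of -1.14 ± 0.07 (SE, adjusted p = 2.26e-08, edgeR). Every Scx-deleted value was under every Scx-positive one, as for Dcn (-1.01 ± 0.09), Col1a1 (-0.54 ± 0.07) and Col5a1 (-0.465 ± 0.07) in log2 (SE). Serpinh1, the collagen chaperone Hsp47, changed by -0.22 ± 0.06 (SE, adjusted p = 0.00782, edgeR). The other falls were those of Col1a2 (-0.40 ± 0.06), Col5a2 (-0.18 ± 0.05) and Sparc (-0.15 ± 0.05) in log2 (SE), and Fn1 and Bgn were not called. Scx-positive 5 had the highest level of Col3a1, Col1a1, Col5a1 and Serpinh1, and without it 1 of the 10 was called higher.

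**Figure D5:**
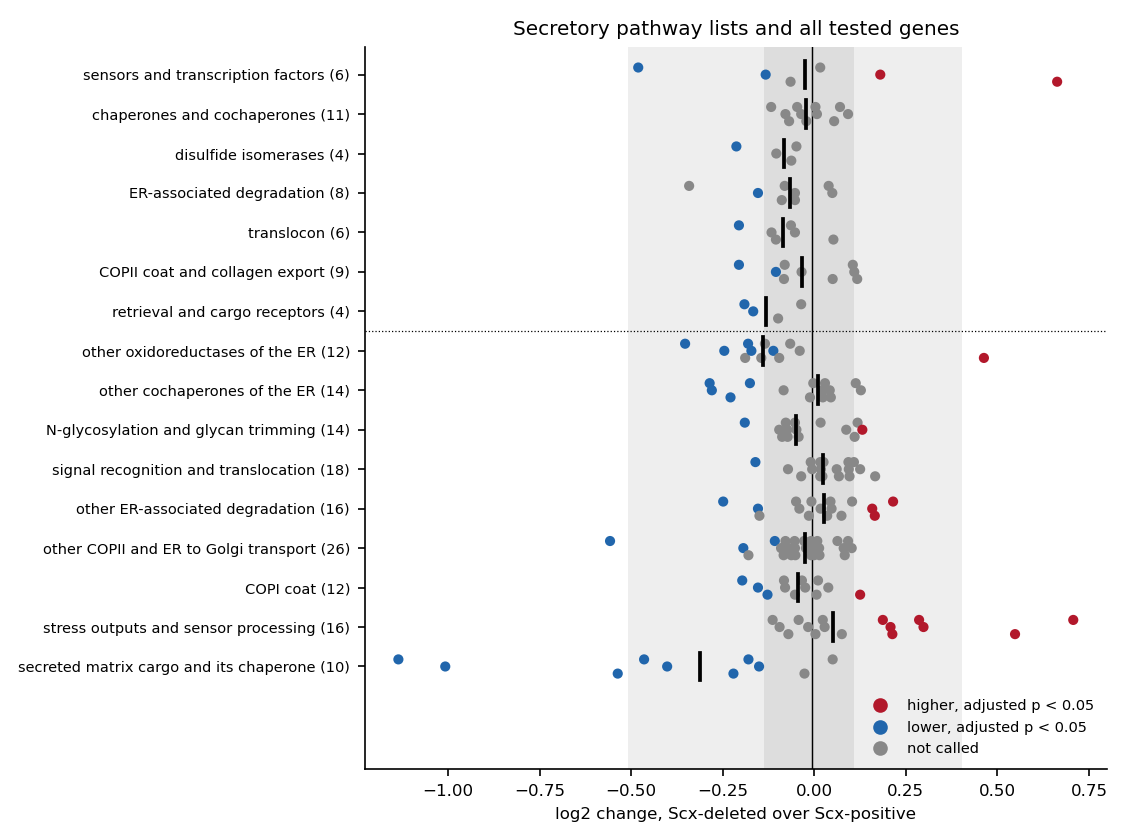
Log2 change of Scx-deleted over Scx-positive cells (x axis) for the 48 genes by role (above the dotted line) and for the 9 further lists (below it), with the number of genes in parentheses. Points are genes (red higher, blue lower, grey not called), black bars are list medians, and shading spans the middle 50% and 90% of all 13125 tested genes, so the cargo list stands out on the left and Atf6 and Ddit3 on the right.

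In the authors' deposited table of the same comparison, 4 of the 48 genes were higher and 16 lower at an adjusted p under 0.05, with 29.2% of its 14511 genes called. All 11 genes called from the counts were called there with the same sign. The 9 others in the authors' deposited table were Canx and Sar1b, higher, and Creld2, Pdia4, Pdia6, Sec61a1, Ssr2, Sec31a and Surf4, lower. Its log2 changes were 0.69 for Atf6, -0.51 for Creb3l1 and 0.07 for Hspa5, the last not called in the authors' deposited table (adjusted p = 0.145).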

How the data were processed

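The genotype label grouped the 8 RNA-seq libraries. STAR, FastQC, DESeq2 and the mouse build mm10 are named, per the submitters' processing notes. Versions, the read counter and strand use: not given in the sources used here. The authors deposited raw counts, as whole numbers, for each gene symbol. Reads in no feature (7.44% to 8.67%) and ambiguous reads (0.49% to 0.567%) were left out. The authors' deposited comparison table holds a mean signal per gene, a log2 change, p-values, and as scores the test statistic and standard error. Its direction was read from the sign, which was the same as in the counts for 100% of the genes called from the counts and listed there. Its 2 columns whose names show no group were not used.

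The counts went into edgeR 4.0.16 under R 4.3.3. There filterByExpr (minimum count 10, total 15) kept 13125 genes, TMM factors scaled the libraries, and group was the only term. Standard errors are the log2 change over the square root of F. Alternatives were RLE and upper-quartile factors, no filter, 5 CPM in 4 libraries, DESeq2 1.42.0, limma-voom (limma 3.58.1), a block for replicate number, numbers 2, 3 and 5 only, offsets for GC content and length (mgcv 1.9.3), adjusted p of 0.01 and 0.1, and each library left out. Pair ratios used counts plus 0.5. Coordinates are from GENCODE M21 (GRCm38). The fit was tested on simulated counts. No 2 libraries of a group were within sampling noise of each other. Since the labels do not say that libraries came from separate animals or cultures, p-values measure the spread between libraries, which may be technical, and reads carry no molecular identifiers.

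The 48 genes, the lists and the tests were chosen with earlier results of these data known. Of the 48, values in every library are given for the 4 genes with the smallest p in each role, called genes with a log2 change of at least 0.5, and Hspa5, Hsp90b1, Xbp1, Atf6, Ern1, Eif2ak3, Sec23a, Sec24d, Mia3, Creb3l1 and Kdelr3; from each further list, up to 4 called genes with the smallest p are named, and the rest of a list's called genes were added after their values were seen, as were the values in every library of Ero1l, Sec16b, Ddit3, Chac1 and Col3a1. Of the further genes listed, 1 had no row of its symbol and was not analysed here. A marker gene of the lists is not reported here. Protein sequences were not used here.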

Additional observations from a re-analysis of the deposited data

Results flagged for a closer look

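In 5 of the 96 groups of 4 libraries (48 genes, 2 genotypes), 1 library stood apart from the other 3 by Dixon's criterion at 95%, and chance alone flags about 1 group in 20. Creb3l1 was at 75.8 CPM in Scx-positive 5, while its 3 fellow libraries held 63.9 to 64.3 CPM. Sec23a was at 221 CPM in Scx-positive 5, against 247 to 252 CPM in the others. Mia3 was at 212 CPM in Scx-positive 5, against 225 to 228 CPM, and at 227 CPM in Scx-deleted 3, against 213 to 215 CPM in the other Scx-deleted libraries. Sel1l was at 339 CPM in Scx-deleted 4, against 366 to 371 CPM in the others. Scx-positive 5 is also the library that the second principal component sets apart.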

How the results depend on the processing

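Of the 11 genes called among the 48, 5 (Atf6, Creb3l1, Pdia5, Sec24d and Kdelr2) kept their call in every setting run, and 23 of the 37 others stayed uncalled in every one. None of the 48 changed direction with a call. Genes higher numbered 1842 and became 2821 with GC and length offsets and 1191 at an adjusted p of 0.01; genes lower numbered 1902 and became 1239 with numbers 2, 3 and 5 only and 1143 at 0.01. Members higher (2) became 1 with numbers 2, 3 and 5 only and at 0.01, 6 with the offsets and 4 at 0.1, and 1 to 2 with a library left out. Members lower (9) became 4 with numbers 2, 3 and 5 only and 15 with the offsets. All other pathway genes higher (13) became 8 with numbers 2, 3 and 5 only, 26 with the offsets and 20 at 0.1, and 10 to 23 with a library left out; all other pathway genes lower (27) became 14 with numbers 2, 3 and 5 only and 16 at 0.01. Pairs that differ after adjustment (0 in the exact test, which no pair could pass alone) became 8 with limma and 0 to 7 with a library left out. The cause of these changes was not tested.

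Deviations of same-numbered libraries from their group means had correlations of -0.06, 0.16 and 0.06 for numbers 2, 3 and 5. Libraries of different numbers gave -0.23 to 0.14. So few values cannot settle whether equal numbers pair the samples, which the labels do not say. With the number as a replicate block, genes higher were 1561 and genes lower 1676, and members higher and lower were 2 and 7: Ern1, Xbp1, Sar1a and Lman1 lost their call and Ssr2 and Sec24a gained one. Derl3, with 7 to 24 counts per library, was limited by depth.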
